A study of Mus musculus with 3 samples.

Results

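Mouse aortic endothelial cells that received glucose oxidase together with Et2HOBA were compared with cells that received glucose oxidase alone. The members are the 13285 protein-coding genes among the 18287 genes listed, and they were chosen by the gene type in the deposited count table, without use of the difference between the treated libraries. Every gene in that table had at least 5 reads in some library, so a gene given below as not listed may have had fewer reads. All 3 groups of the study were cultures of 1 purchased primary cell stock from mouse aorta in its supplied complete medium, and each group is 1 library. The strain, age and sex of the mice are not given in the sources used here. The control group is labelled as control only. The glucose oxidase group was given the enzyme at 5 mU/mL for 30 min. The third group had the same enzyme dose and time plus ethyl-2-hydroxybenzylamine (Et2HOBA) at 0.2 mM for 24 h. Which of the exposures came first is not stated, and a library with Et2HOBA and no enzyme was not analysed here. The presence of Et2HOBA and the longer exposure time that goes with it therefore cannot be told apart.

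Glucose oxidase converts glucose and oxygen to gluconolactone and hydrogen peroxide, so that adding it to the medium exposes cells to a steady source of oxidant. Peroxidation of membrane lipids yields isolevuglandins, reactive aldehydes that bond to lysine residues of proteins. Hydroxybenzylamines are scavengers that react with these aldehydes before proteins do, and the series' design text names scavenging of adducts as the reason for adding the compound. The question for this comparison is which transcripts differ between cells given the scavenger as well as the oxidant source and cells given the oxidant source alone.

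Polyadenylated RNA was sequenced from stranded libraries. The reads over listed genes came to 35969965 for control, 35005089 for glucose oxidase and 40212212 for glucose oxidase plus Et2HOBA, and protein-coding genes took 98.1% to 98.5% of them. The enzyme-only library was deposited as log2 differences from control, from which its counts were worked back; 100% of them came out within 0.01 of a whole number. With 1 library in a group no test between conditions is possible, and no difference below has a replicate check. Intervals at 95% are exact (Clopper-Pearson, from the binomial share of reads); they hold counting error alone and set library against library, not condition against condition. Read counts are given throughout in the order control, glucose oxidase, glucose oxidase plus Et2HOBA. Fold differences are ratios of normalized counts of the treated libraries. Log2 ratios have 10 normalized counts added to both sides, which pulls the values of low genes toward 0.

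The glucose oxidase library stood apart in one respect. Processed pseudogenes, which copy the sequence of other transcripts, took 0.389% of its reads, against 0.718% in control and 0.751% with Et2HOBA. Protein-coding genes that share sequence with another gene also differed between the treated libraries: of the 1391 that share 10% or more of their 50-base stretches, 3.16% were at least 1 log2 unit higher with Et2HOBA, against 0.807% of the 8546 that share none. Their counts depend on how reads that match several places were assigned, and the share is given beside each gene it touches. Its part in the results was not tested beyond the counts without such genes.

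At a limit of 1 log2 unit, 441 of the 13285 genes differed between the treated libraries, or 3.32%. Of these, 129 were higher with Et2HOBA (0.971% of all) and 312 were lower (2.35%). The median gene sat at -0.02, the middle part of the distribution (25th to 75th percentile) ran from -0.25 to 0.17, and the extremes were -2.28 and 4.01. Genes past the limit were thus 29.3% higher and 70.7% lower. On the compressed scale of the deposited values for this pair of libraries 13 were higher and 7 lower, which is 65.0% higher, and at a limit of 2 log2 units 71.4% of 21 genes were higher. Without the genes that share 10% or more of their stretches, 85 were higher and 274 lower. The same limit gave 9.30% of protein-coding genes for glucose oxidase against control (4.53% higher, 4.76% lower) and 16.6% for glucose oxidase plus Et2HOBA against control (7.33% higher, 9.30% lower). These comparisons share libraries with the present one.

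The higher and lower genes lay at different levels. Among genes with a mean normalized count of 10 to under 100, 7.75% were lower and 2.76% higher with Et2HOBA. Between 1000 and 10000 the shares were 0.448% and 0.514%, and of the 651 genes at 10000 or more none was lower and 4 were higher. The genes called lower had medians of 421, 153 and 55 reads. For the genes called higher the medians were 65, 62 and 242 reads.

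**Figure D1:**
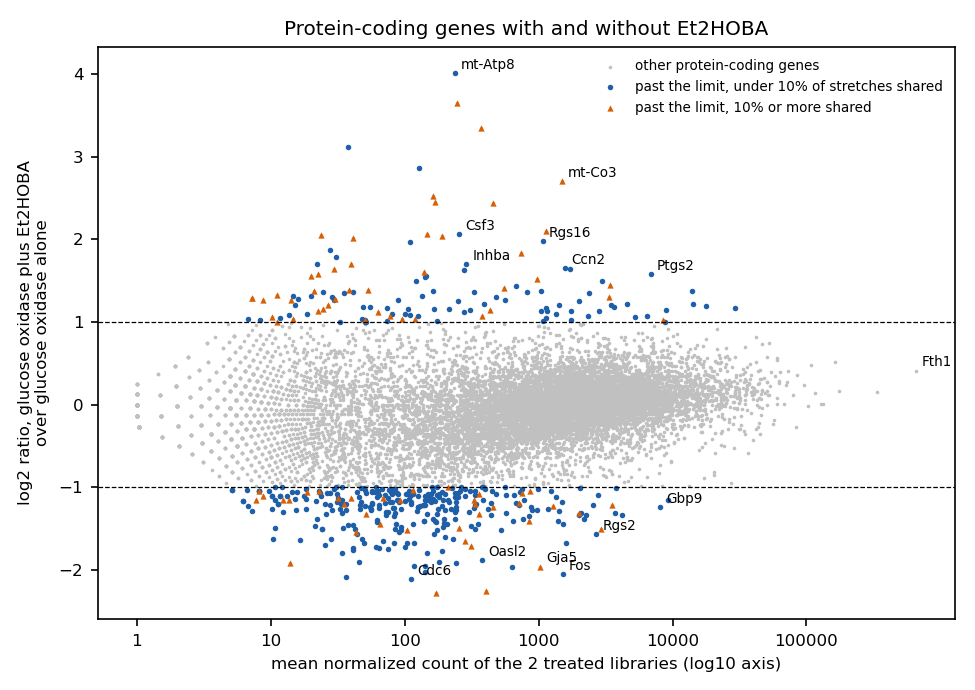
Each point is 1 of 13285 protein-coding genes; the x axis is the mean normalized count of the treated libraries (log axis, means under 1 drawn at 1) and the y axis the log2 ratio of glucose oxidase plus Et2HOBA over glucose oxidase alone, with dashed lines at the limit of 1. Of the 441 genes past the limit, blue circles share under 10% of their stretches with another gene and orange triangles share 10% or more. Most of the 312 lower and most of the 129 higher genes lie at means under 1000. Abundant genes past the limit include Ptgs2 on the higher side and Gbp9 on the lower.

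**Figure D2:**
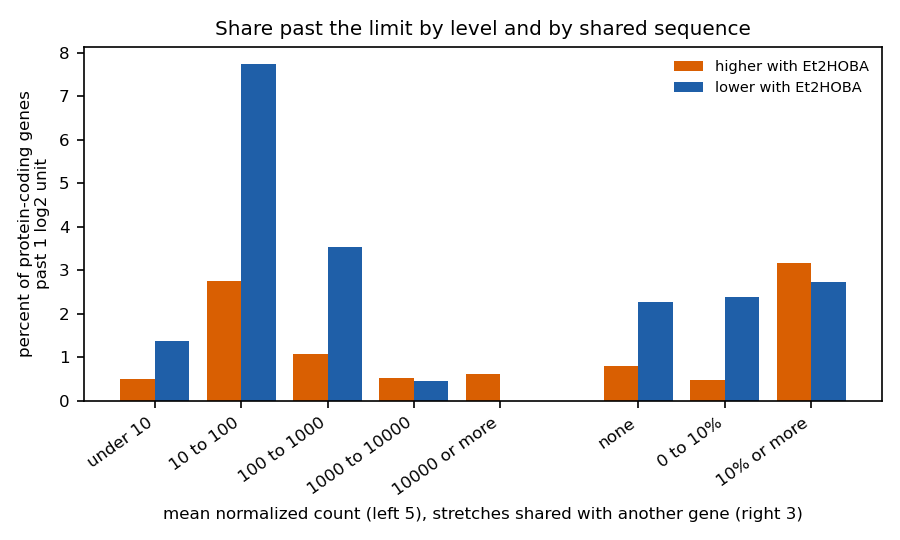
Bars give the percent of protein-coding genes that were past 1 log2 unit, higher in orange and lower in blue, in 5 classes of mean normalized count and 3 classes of sequence shared with another gene. Lower genes outnumber higher genes in the 3 classes below 1000, and the excess of higher genes at 10% or more of shared stretches (3.16% against 2.73% lower) is absent from the class with none (0.807% against 2.27%).

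The deposited table of this comparison lists 7 genes, namely colony-stimulating factors and receptors for them, which carry signals for the growth and activation of myeloid cells. The recovered counts gave the 7 deposited values with a largest difference of 5e-10 once 2 constants were fitted. Among the ligands, Csf3, the granulocyte factor G-CSF (ENSMUSG00000038067.2, chr11:98701263-98703629), gave 55, 89 and 432 reads. It was 4.51-fold higher with Et2HOBA than with glucose oxidase alone (95% interval 3.58 to 5.73). Csf1, the macrophage factor, had 6542, 4909 and 4947 reads and was 0.937 of the level without Et2HOBA (0.900 to 0.975). Csf2, the granulocyte-macrophage factor GM-CSF, was scarce at 6, 34 and 44 reads, and its interval of 0.751 to 1.94 spans equal levels.

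The 2 beta chains of the receptors lay on the lower side. Csf2rb, the common beta chain of the receptors for GM-CSF, IL-3 and IL-5 (ENSMUSG00000071713.6, chr15:78325752-78353847), gave 9961 reads in control, 4185 with the enzyme and 1582 with the enzyme and Et2HOBA. That is 2.85-fold lower with Et2HOBA (2.69 to 3.02). Csf2rb2, the neighbouring gene for the IL-3-specific beta chain (chr15:78282507-78305721), gave 1326, 471 and 148 reads and was 3.42-fold lower (2.84 to 4.15). The pair share 18.4% and 19.4% of their stretches with other genes. Csf2ra, the GM-CSF receptor alpha chain, stayed within a narrow range at 615, 695 and 639 reads. Csf1r, the M-CSF receptor, had 6, 12 and 10 reads, too few to place a difference. In the authors' deposited table the value of Csf3 was 0.60 and that of Csf2rb -1.07, whereas the log2 ratios with 10 added counts were 2.06 and -1.50. The deposited scale acts on abundant genes like an added count of 1235, which compresses differences of genes below that level. Csf3r and Il34 were not listed.

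Other secreted signals lay on both sides. Of 21 listed chemokines and cytokines, 3 were past the limit upward and 3 downward, against 0.971% and 2.35% of all genes, with a median log2 ratio of 0.20 that ranged from 0.03 to 0.46 over the alternative settings. Il6, a cytokine of the acute-phase response, gave 72, 351 and 1038 reads, 2.75-fold higher (2.43 to 3.11). Cxcl2, which attracts neutrophils, gave 589, 1485 and 4543 reads and was 2.84-fold higher (2.68 to 3.02). Il1a, an alarm cytokine, was near the detection floor at 1, 7 and 34 reads. Thus for these 3 genes the treated library with Et2HOBA was the highest of the 3. On the lower side, Cxcl12, which retains leukocytes and progenitors in tissue, gave 9243, 1791 and 879 reads, 2.19-fold lower (2.02 to 2.38). Tnfsf10, the death ligand TRAIL, had 265, 56 and 10 reads and was 6.02-fold lower (3.05 to 13.2). Ccl20 had 27, 12 and 0 reads, so only a bound exists for it. Cx3cl1, the membrane-bound chemokine fractalkine, was under the limit at 6258, 1783 and 1067 reads.

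Growth factors also lay on both sides. Of 27 listed members 4 were higher past the limit and 2 lower, against 0.971% and 2.35% of all genes, and the median was 0.39. The higher members were Inhba and Inhbb, subunits of activins, Hbegf, a ligand of the EGF receptor, and Pgf, placental growth factor. Inhba (chr13:16011851-16031621) gave 52, 126 and 463 reads, 3.42-fold higher (2.80 to 4.19). Hbegf gave 297, 801 and 2708 reads, 3.14-fold higher (2.90 to 3.40). Inhbb was at 294, 556 and 1558 reads and Pgf at 3078, 4002 and 9055. In each of these genes the level after the enzyme alone lay between control and the library with Et2HOBA. The lower members were Igf1, insulin-like growth factor, at 1547, 126 and 41 reads (3.31-fold lower, 2.31 to 4.83), and Fgf1 at 529, 137 and 64 reads (2.30-fold lower, 1.70 to 3.15). Other ligands of the EGF receptor family were higher without reaching the limit: the log2 ratio was 0.94 for Areg, 0.86 for Nrg1, 0.65 for Ereg and 0.41 for Btc.

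Prostanoid synthesis starts with release of arachidonic acid and its conversion by cyclooxygenases. The inducible cyclooxygenase Ptgs2 (ENSMUSG00000032487.8, chr1:150100031-150108227) gave 1356 reads in control, 3324 with glucose oxidase and 10705 with glucose oxidase plus Et2HOBA. It was 2.99-fold higher with Et2HOBA (2.88 to 3.11). The constitutive enzyme Ptgs1 did not share this difference, at 4708, 3382 and 3696 reads (interval 0.969 to 1.06). Ptger4, the prostaglandin E receptor EP4, was 2.34-fold higher at 138, 96 and 242 reads (1.84 to 3), and here the enzyme-only library was the lowest. Pla2g4a, the phospholipase that releases arachidonic acid, was at 3335, 6415 and 8861 reads, a log2 ratio of 0.36. Ptgs2 and Ptger4 were the 2 of 16 listed members higher past the limit, against 0.971% of all genes, and none was lower past it.

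Matrix genes included 3 that were higher past the limit. Ccn2, the connective tissue growth factor (chr10:24595442-24598683), gave 344, 731 and 2483 reads, 3.16-fold higher (2.91 to 3.43). Tnc, the matrix glycoprotein tenascin-C, was at 291, 442 and 1237 reads, and the stromelysin Mmp10 at 4, 13 and 48. All 3 were lowest in control and highest with Et2HOBA. Most structural matrix genes lay near 0, such as Fn1 at 0.25, Sparc at 0.08 and Col4a1 at -0.13. Over the 32 listed matrix genes 3 were higher and 1 was lower, against 0.971% and 2.35% of all genes, and the median was 0.14. The lower gene, Col3a1, had 2, 12 and 0 reads. Of the fibrinolysis genes, Plaur, the urokinase receptor, had a log2 ratio of 0.56 and Plau, the protease urokinase, of -0.21.

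**Figure D3:**
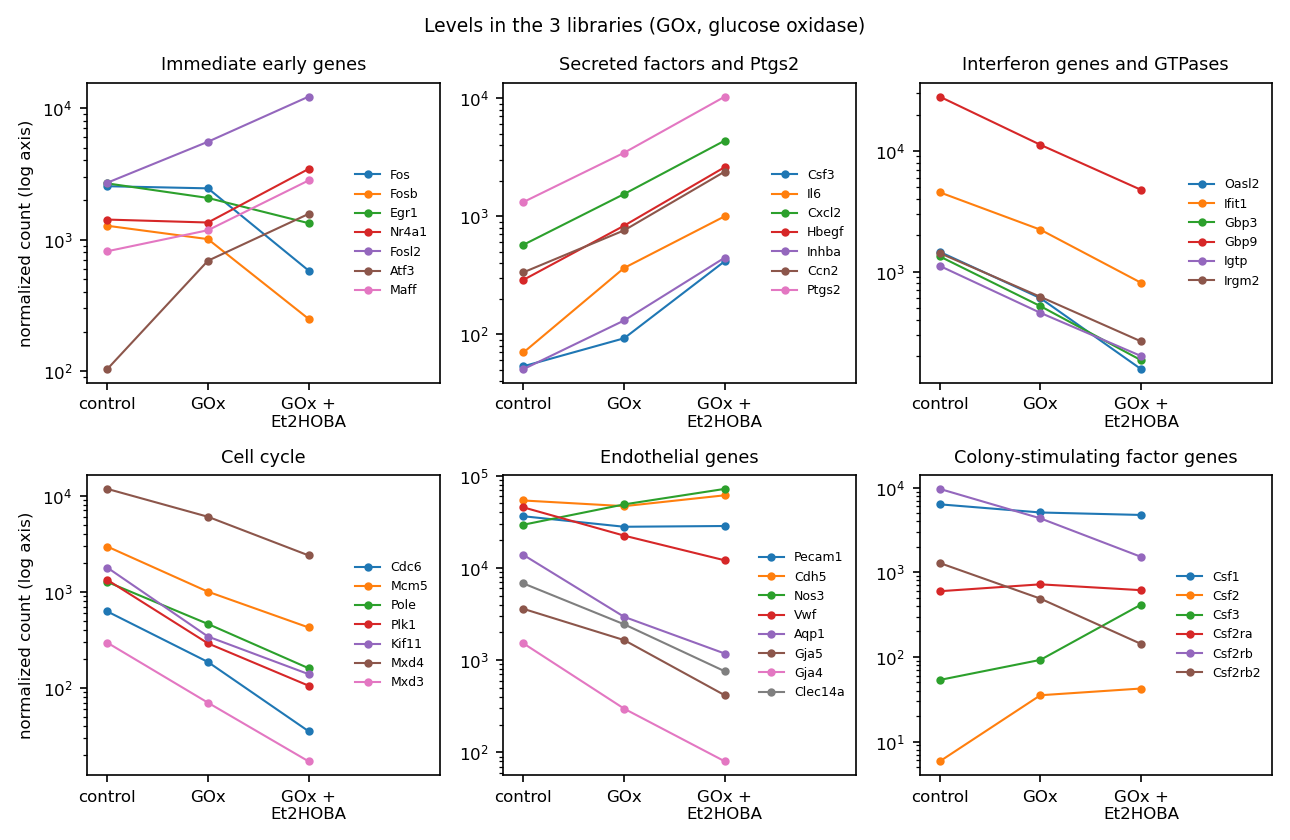
Normalized counts (log axis) of named genes in the control, glucose oxidase (GOx) and glucose oxidase plus Et2HOBA libraries, in 6 panels by role, with 1 library per point and lines joining the points of a gene. Csf3 and Ptgs2 are highest and Oasl2 and Cdc6 lowest with Et2HOBA, while Fos is near its control level after glucose oxidase (2619 and 2364 reads) and is low only in the third library (605 reads).

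Immediate early genes encode transcription factors that appear within minutes of a stimulus and decay soon after. Of 27 listed members 5 were higher past the limit and 2 lower, against 0.971% and 2.35% of all genes, and the family split by gene. Fos (ENSMUSG00000021250.13, chr12:85473890-85477273) gave 2619, 2364 and 605 reads, which is 4.20-fold lower with Et2HOBA (3.84 to 4.6). Its relative Fosb (chr7:19302696-19310051) gave 1312, 973 and 260 reads, 4.03-fold lower (3.51 to 4.63). After the enzyme alone Fos was close to its control level, with a log2 ratio to control of -0.05, and Fosb was somewhat lower at -0.33. Egr1, at 2752, 1999 and 1386 reads, and Junb, at 7172, 5026 and 4018, were lower by less than the limit.

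The other Fos family members went the opposite way. Fosl2 gave 2783, 5339 and 12662 reads, 2.20-fold higher (2.13 to 2.28), and Fosl1 gave 156, 1122 and 2267, just under the limit at 0.90. Atf3, a stress-induced repressor, was at 107, 667 and 1630 reads, 2.27-fold higher (2.07 to 2.49). Maff, a small Maf protein that pairs with cap'n'collar factors, was 2.39-fold higher at 840, 1137 and 2926 reads. Nr4a1, an orphan nuclear receptor, gave 1462, 1301 and 3578 reads and was 2.56-fold higher (2.40 to 2.73). Ier3 was the fifth member past the limit, at 1709, 3277 and 7361 reads. The endothelial flow-responsive factors Klf2 and Klf4 had log2 ratios of 0.68 and 0.87, with 10015, 10850 and 18707 reads for Klf2 and 4264, 4008 and 7870 for Klf4.

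Regulators that limit G-protein and MAP kinase signalling were also found on both sides. Rgs16, which speeds the GTPase of heterotrimeric G proteins (ENSMUSG00000026475.7, chr1:153740349-153745468), gave 73, 415 and 1789 reads, 4.01-fold higher (3.6 to 4.47). Rgs2, a member of the same family that acts on Gq (chr1:143999338-144004161), gave 10796, 3891 and 1403 reads, 2.98-fold lower (2.81 to 3.17). The enzyme-only level lay between the other libraries for both genes, in opposite orders. Among the MAP kinase phosphatases, Dusp5 gave 273, 695 and 1651 reads and Dusp10 gave 36, 125 and 312, both past the limit. Spry4, a feedback inhibitor of receptor tyrosine kinases, was 2.14-fold higher at 1109, 829 and 1909 reads. Over the 23 listed members 4 were higher and 2 lower, against 0.971% and 2.35% of all genes, with a median of 0.48. The second lower member, Rgs7, had 49, 19 and 5 reads.

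The Notch ligand Jag1 was the 1 gene past the limit among 24 listed Notch, BMP and TGF-beta genes (4.17%, against 3.32% of all genes). It gave 5337, 8265 and 20718 reads, 2.33-fold higher with Et2HOBA (2.27 to 2.39). Its partners were not past the limit: Notch1 had a log2 ratio of -0.05, Notch4 of -0.29, Dll4 of 0.10 and Hes1, a Notch target, of 0.28.

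AP-1, the dimer of Fos and Jun proteins, binds the letters TGANTCA. Promoter windows of 300 bases, 250 before and 50 after the start of the gene, came from RefSeq (build GRCm38.p6) and were matched by symbol for 10479 of the 13285 genes. Of these, 9231 had a start within 500 bases of the listed gene start and were searched on both strands. The AP-1 letters were in 13 of 61 windows of higher genes (21.3%), in 17 of 212 windows of lower genes (8.02%) and in 457 of all 9231 (4.95%). They were not particular to higher genes. Interferon-stimulated genes held them in 6 of 29 windows (20.7%) and immunity GTPases in 3 of 8 (37.5%), both lists lower with Et2HOBA. Of the immediate early gene windows, 0 of 16 held them. The 160 bases upstream of Mmp10 are shown as an example, with the AP-1 letters in capitals (GRCm38.p6, chr9:7502182-7502341, plus strand):
Mmp10: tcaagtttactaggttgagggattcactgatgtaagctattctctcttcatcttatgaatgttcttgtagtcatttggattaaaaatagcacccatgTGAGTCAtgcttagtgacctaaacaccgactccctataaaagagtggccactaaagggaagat

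Interferons act through cell surface receptors and kinases on a set of antiviral genes, and endothelial cells carry a resting level of many of them. This set was lower with Et2HOBA. Of 37 listed interferon-stimulated genes none was higher past the limit and 11 were lower, against 2.35% lower of all protein-coding genes. A log2 ratio below 0 was found in 36 of the 37, against 53.2% of all protein-coding genes. The median was -0.87. Oasl2, an oligoadenylate synthetase-like protein (chr5:114896936-114912234), gave 1504, 582 and 162 reads, 3.87-fold lower with Et2HOBA (3.24 to 4.63). Oas2 gave 684, 280 and 101 reads and was 2.98-fold lower (2.37 to 3.78). Ifit1, which binds viral RNA caps, gave 4679, 2149 and 841 reads, 2.75-fold lower (2.54 to 2.98). All of these were also lower than control after the enzyme alone.

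Ifit3 and Ifit3b, near-identical neighbours that share 51.2% and 45.0% of their stretches, were 2.49-fold and 2.69-fold lower. Parp14, a mono-ADP-ribosyltransferase, was 2.39-fold lower at 2801, 1185 and 534 reads. Of the factors that drive this set, Irf1, Irf7 and Irf9 had log2 ratios of -0.99, -0.88 and -0.46, and Stat2 of -0.43. Members near 0 were Bst2, the virion tether tetherin, at 25480, 12899 and 13108 reads, and Oasl1, at 109, 83 and 95 reads.

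The guanylate-binding proteins and the related immunity GTPases, which attack vacuoles of intracellular pathogens, lay lowest of all 27 lists. All 17 listed members had a log2 ratio below 0, and 13 were past the limit, against 53.2% and 2.35% of all protein-coding genes. The median was -1.20. Gbp9, the most abundant, gave 29025, 10848 and 4950 reads, a log2 ratio of -1.24, and was past the limit also on the deposited scale. Gbp3 (chr3:142560026-142573209) gave 1378, 500 and 192 reads, 2.80-fold lower (2.37 to 3.33). Gbp2b was 3.24-fold lower at 529, 295 and 98 reads (2.57 to 4.11). Iigp1, an immunity-related GTPase, gave 672, 278 and 72 reads and was 4.15-fold lower (3.20 to 5.46). Members of this family resemble each other: Gbp10, Gbp6, Tgtp1 and Tgtp2 share between 59.7% and 91.4% of their stretches. Irgm1, with no shared stretch, was at 4900, 2178 and 1172 reads, a log2 ratio of -0.99. The 4 members outside the limit were Irgm1, Gbp8 (18.2% shared), Ifi47 and Gbp6, the last at -0.72.

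The core of the interferon-stimulated response element, searched as GAAA and GAAA parted by any 2 bases, was in 7 of the 8 GTPase promoter windows that could be searched (87.5%). It was in 12 of 29 windows of the interferon-stimulated genes (41.4%), 22 of 212 lower genes (10.4%), 1 of 61 higher genes (1.64%) and 3% of all. The upstream 160 bases of 3 members are printed because they show the element, in capitals, at different distances and on either strand; adjoining copies can overlap. The intervals are chr3:142559884-142560043 for Gbp3, chr11:58199396-58199555 for Igtp and chr19:34640729-34640888 for Ifit1, all on the plus strand of GRCm38.p6:
Gbp3: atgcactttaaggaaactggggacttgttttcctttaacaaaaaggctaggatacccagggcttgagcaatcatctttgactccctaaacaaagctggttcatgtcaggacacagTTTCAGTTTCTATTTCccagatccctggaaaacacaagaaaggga
Igtp: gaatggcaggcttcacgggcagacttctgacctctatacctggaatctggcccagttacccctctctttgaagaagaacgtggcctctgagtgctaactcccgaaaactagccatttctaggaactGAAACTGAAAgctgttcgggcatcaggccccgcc
Ifit1: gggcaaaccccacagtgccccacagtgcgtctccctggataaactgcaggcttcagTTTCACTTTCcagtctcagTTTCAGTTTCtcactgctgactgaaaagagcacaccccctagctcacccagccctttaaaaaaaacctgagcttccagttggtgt

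Gbp3, Igtp and Ifit1 had log2 ratios of -1.44, -1.15 and -1.45, and Igtp shares 12.3% of its stretches. A match of letters is a description of these windows and does not show binding.

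Antigen presentation genes differed less. Of 27 listed members 5 were lower past the limit, against 2.35% of all genes, none was higher, and the median was -0.27. The immunoproteasome subunits Psmb8 and Psmb9, which shape peptides for class I molecules, gave 292, 109 and 50 reads and 259, 118 and 55 reads. They were 2.35-fold and 2.31-fold lower with Et2HOBA. Of the class I genes, H2-Q4 was 2.58-fold lower at 1693, 496 and 207 reads, with 22% of its stretches shared, and H2-D1, with 14.3% shared, was at 20264, 17665 and 16164. B2m, the light chain of every class I molecule, had a log2 ratio of 0.04. Tap1 and Tap2, the peptide transporter, had ratios of -0.27 and -0.23. Genes of the class I pathway thus lay both near 0 and past the limit.

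NF-kappaB and adhesion genes lay on both sides of 0 with medians near it. None of the 17 NF-kappaB subunits and feedback genes and none of the 15 leukocyte adhesion molecules passed the limit, against 3.32% of all genes. Their medians were -0.03 and 0.03, and each sign turned under another scaling or over members with no shared stretch. Nfkbia, the inhibitor IkappaB-alpha, was at 6622, 4712 and 4049 reads, and Nfkbiz at 6240, 5677 and 6259. Tnfaip3, the deubiquitinase A20, had the highest ratio of its list at 0.83. Among adhesion molecules Selp, P-selectin, had a ratio of 0.28, Vcam1 of 0.24 and Icam2 of -0.84.

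The cell cycle lists were lower with Et2HOBA. Of 32 DNA replication genes 5 were lower past the limit, against 2.35% of all protein-coding genes, and none higher, with a median of -0.57. Cdc6, which loads the replicative helicase (ENSMUSG00000017499.15, chr11:98907801-98923940), gave 644, 180 and 37 reads, 5.23-fold lower (3.66 to 7.67). Pole, the leading-strand polymerase, gave 1304, 447 and 167 reads and was 2.88-fold lower (2.41 to 3.46). Mcm5, a helicase subunit, was 2.35-fold lower at 3041, 967 and 443 reads, and Mcm6 was just short of the limit at -0.97. Cdt1, which licenses origins, had the highest ratio of the list at 0.33.

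Of 34 listed mitosis genes 13 were lower past the limit, against 2.35% of all protein-coding genes, and none higher, with a median of -0.87. Plk1, a mitotic kinase, gave 1370, 281 and 110 reads, 2.75-fold lower (2.20 to 3.46). Kif11, the spindle motor Eg5, gave 1838, 331 and 145 reads and was 2.46-fold lower (2.01 to 3.01). Cdc20, an activator of the anaphase-promoting complex, gave 1861, 458 and 208 reads and was 2.37-fold lower (2.01 to 2.80), with 11.4% of its stretches shared. The 2 members closest to or above 0 were Incenp at -0.04 and Tpx2 at 0.22. For nearly all of these genes the enzyme-only library was already well below control: 31 of the 34 were lower past the limit there, against 4.76% of all genes, in a comparison that shares a library with the present one.

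The letters TTTNGCGC of E2F sites were in 6 of 25 replication promoters (24.0%) and in 2.42% of all windows. Among all genes called lower they were in 8 of 212 windows (3.77%), and among those called higher in 0 of 61. The cell cycle homology region, TTTGAA, was in 19 of 26 mitosis promoters (73.1%) against 11.8% of all, and CCAAT in 20 of 26 (76.9%) against 39.4%; 17 held both. In the same order, the shares were 21.7% and 46.7% among genes called lower and 11.5% and 34.4% among genes called higher. Printed next, 5′ to 3′ on the strand of the gene, are the 160 bases upstream of 2 replication genes with E2F letters in capitals and of 2 mitosis genes with both mitosis motifs in capitals. The intervals in GRCm38.p6 are chr8:75109349-75109508 (plus) for Mcm5, chr1:128359706-128359865 (minus) for Mcm6, chr19:37376222-37376381 (plus) for Kif11 and chr4:118437344-118437503 (minus) for Cdc20:
Mcm5: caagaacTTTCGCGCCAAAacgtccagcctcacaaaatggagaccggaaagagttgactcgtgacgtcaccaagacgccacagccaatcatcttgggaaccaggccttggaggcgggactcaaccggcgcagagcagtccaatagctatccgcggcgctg
Mcm6: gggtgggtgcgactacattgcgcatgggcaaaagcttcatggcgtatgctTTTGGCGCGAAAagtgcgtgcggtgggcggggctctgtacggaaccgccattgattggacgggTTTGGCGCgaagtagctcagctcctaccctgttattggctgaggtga
Kif11: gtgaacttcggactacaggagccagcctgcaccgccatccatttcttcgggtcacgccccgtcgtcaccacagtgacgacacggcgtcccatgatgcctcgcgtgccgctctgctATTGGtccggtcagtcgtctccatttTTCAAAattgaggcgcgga
Cdc20: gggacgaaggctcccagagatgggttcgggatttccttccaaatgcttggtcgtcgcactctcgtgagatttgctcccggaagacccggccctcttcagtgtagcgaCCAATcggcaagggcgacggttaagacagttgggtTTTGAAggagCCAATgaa

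In Mcm5 and Mcm6 the capitals join E2F letters of both strands that overlap. In Kif11 both motifs appear as their complements.

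In the MYC network 2 of 11 listed members, both repressors, were lower past the limit, against 2.35% of all genes. Mxd4, an antagonist of MYC, gave 12076, 5806 and 2482 reads, 2.52-fold lower (2.40 to 2.64), and Mxd3 gave 305, 68 and 18 reads, 4.06-fold lower (2.39 to 7.26). Myc itself was at 1230, 1727 and 2406 reads, a log2 ratio of 0.37. The other repressors of the list differed, with Mxi1 at 0.95 and Mnt at 0.43, so that the 11 members had a median of 0.01 whose sign turned to -0.08 with total-count scaling and to -0.17 over members with no shared stretch. Of 23 p53 targets 1 was lower and 1 higher past the limit (together 8.70%, against 3.32% of all genes). The lower one was Sesn1, at 2328, 1190 and 495 reads (2.59-fold, 2.33 to 2.88), and the higher one was Gdf15. Cdkn1a, the p21 inhibitor, had a ratio of 0.22.

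Markers of endothelial cells were present at high levels in every library. All 10 markers were listed and none was past the limit, against 3.32% of all genes. Their sum was 10183, 6295 and 5372 CPM (reads scaled to library size). Pecam1 was at 37351, 26919 and 29562 reads and Cdh5, VE-cadherin, at 55360, 45034 and 63665. Kdr and Tie1, receptor kinases, had log2 ratios of -0.29 and -0.22. The larger differences were in Vwf, von Willebrand factor, at 46607, 21567 and 12545 reads (1.85-fold lower, 1.81 to 1.89), Tek at -0.87 and Cldn5, a tight junction protein, at -0.81. Emcn, Erg and Egfl7 had ratios of 0.22, -0.63 and -0.02.

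Over the longer list of 35 endothelial identity genes 6 were lower past the limit, against 2.35% of all genes. None was higher, and the median was -0.36. Gja4 and Gja5, gap junction proteins, mark arterial endothelium. Gja4 (chr4:127311421-127314039), gave 1562, 287 and 83 reads, 3.72-fold lower (2.90 to 4.81). Gja5 gave 3701, 1589 and 432 reads and was 3.96-fold lower (3.56 to 4.41), with 21% of its stretches shared. Clec14a, a lectin of angiogenic vessels, was 3.23-fold lower at 6977, 2358 and 786 reads. Aqp1, the water channel, was 2.50-fold lower at 14207, 2842 and 1224. The transcription factors Lyl1 and Sox18 were 2.38-fold and 2.01-fold lower. Of the 35, 6 had a ratio above 0, and the highest was that of Nos3, the endothelial nitric oxide synthase, at 30246, 47041 and 74692 reads, 1.48-fold higher (1.46 to 1.49).

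Markers of other cell types were mostly at low levels or not listed, with Lyve1 and Cd68 as the most abundant exceptions. Other exceptions were Flt4 at 7071, 6084 and 7796 reads and Smtn at 4970, 3517 and 3996. Of 10 leukocyte markers Ptprc, Adgre1, Itgam, Cd3e and Tyrobp were not listed, and the sum of the 5 listed, 235, 494 and 701 CPM, was nearly all Cd68, a lysosomal protein, at 8215, 17067 and 27799 reads. Fibroblast markers summed to 42.8, 76.7 and 98.4 CPM over 5 of 9, with Col1a2, Dcn, Lum and Dpt not listed. Nearly all of that sum was Pi16, at 1231, 1284 and 1085 reads, and Pdgfra, at 107, 1325 and 2821 reads. Pdgfra held most of it only in the library with Et2HOBA. Smooth muscle markers (8 of 11 listed) stood at 140, 104 and 104 CPM, of which Smtn was nearly all. Mesothelial and epithelial markers, 2 of 7 listed, were at 27.3, 71.4 and 97.2 CPM, nearly all of it Msln at 980, 2493 and 3904 reads. Lymphatic markers, 2 of 5 listed with Prox1 not listed, were at 525, 814 and 1020 CPM, and Lyve1, a hyaluronan receptor, gave 11828, 22417 and 33226 reads. In these bulk libraries fewer cells of a type and less RNA per cell cannot be told apart. The part of other cell types in the differences was not tested.

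The integrated stress response, in which ATF4 drives amino acid synthesis and import, lay on the higher side by a small margin, with ratios from -0.72 to 1.63. Of 35 listed members 1 was past the limit (2.86%, against 3.32% of all genes). A ratio above 0 was found in 31, against 46.6% of all genes. The median was 0.47, where all protein-coding genes had -0.02. The member past the limit was Gdf15, a stress-induced cytokine, at 35, 125 and 437 reads (3.25-fold higher, 2.66 to 4). Atf4 had 3288, 11946 and 19243 reads, a log2 ratio of 0.58, and Ddit3, the factor CHOP, a ratio of 0.74. Chac1, which degrades glutathione, was just below the limit at 0.98. The members below 0 were Slc7a3, Ddit4, Vldlr and Atf5, with Ddit4, an inhibitor of mTORC1, at 38578, 24686 and 20909 reads. The letters TGATGNAAN of ATF4 sites were in 6 of 23 promoter windows of this list (26.1%) and in 2.16% of all. They were in 3 of 61 windows of genes called higher (4.92%) and 4 of 212 called lower (1.89%).

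Chaperones of the endoplasmic reticulum had no member past the limit among 27, against 3.32% of all genes, with a median of 0.20. Hspa5, the chaperone BiP, was at 17473, 18357 and 28410 reads, 1.44-fold higher (1.41 to 1.47). Ero1l, an oxidase of disulfide formation, had the highest ratio at 0.91. In the heat shock list 3 of 21 were higher, against 0.971% of all genes. They were Hspa1a at 66, 483 and 1505 reads, Hspa1b at 523, 1746 and 5152, and the small heat shock protein Hspb1 at 2, 62 and 224. These 3 share 60.3%, 62.3% and 51.6% of their stretches. Hsph1 and Dnajb1, which share under 1% or none, had ratios of 0.37 and 0.33.

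NRF2 is the main regulator of antioxidant enzymes and of glutathione supply. None of its 30 listed targets passed the limit, against 3.32% of all genes, and the median was 0.17. A ratio above 0 was found in 24 of the 30, against 46.6% of all genes. The median was 0.07 with total-count scaling and 0.30 over members with no shared stretch. Hmox1, heme oxygenase, had a log2 ratio of 0.73, the highest of the list. Fth1, the ferritin heavy chain, was the most abundant protein-coding gene of both treated libraries, at 183445, 542914 and 776210 reads (1.33-fold higher, 1.32 to 1.33). Nqo1 had a ratio of 0.13, Gclc of -0.01 and Gstm1, with 23.1% of its stretches shared, of -0.34. The enzymes that clear aldehydes and lipid peroxides lay near 0, with 8 of 25 above it. Of 25 listed members only Aldh1b1, a mitochondrial aldehyde dehydrogenase, was past the limit, at 81, 65 and 159 reads (2.27-fold higher, 1.69 to 3.08). Aldh2 was at 27663, 29398 and 28524 reads, Gpx4 (61.7% shared) had a ratio of 0.13 and Glo1 of -0.15, and the list median was -0.06.

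In the remaining metabolic lists the ratios were small. None of the 24 cholesterol synthesis genes passed the limit, against 3.32% of all genes, with a median of 0.26. Insig1, a sterol sensor, was 1.5-fold higher (1.43 to 1.56). Of 28 hypoxia and glycolysis genes 1, Ndrg1, reached the limit (3.57%, against 3.32% of all genes), with 1993, 5631 and 12146 reads. The median of this list was 0.26. Slc2a1, the glucose transporter GLUT1, and Hk2, a hexokinase, had ratios of 0.75 and 0.78. Among vasomotor genes, Ednrb, the endothelin B receptor, had a ratio of 0.79 and Edn1, endothelin, of -0.77 at 57, 37 and 19 reads.

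**Figure D4:**
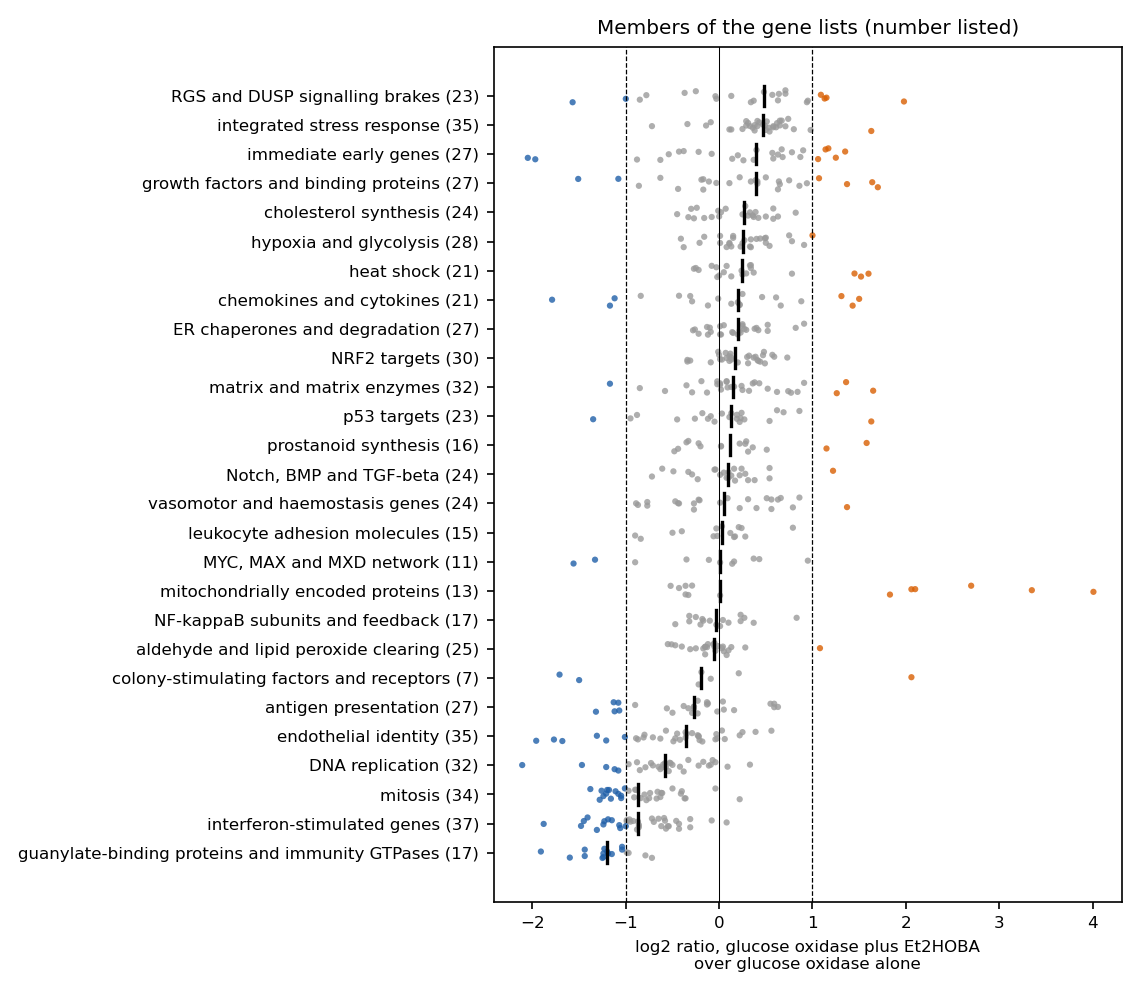
Each point is a listed member of 1 of the 27 gene lists, the x axis is its log2 ratio of glucose oxidase plus Et2HOBA over glucose oxidase alone, black bars are list medians and dashed lines mark the limit of 1 (orange higher, blue lower). The guanylate-binding protein, interferon, mitosis and DNA replication lists have medians from -1.20 to -0.57, whereas the stress response, immediate early gene and signalling brake lists have medians from 0.40 to 0.48 with members on both sides.

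The highest ratio of all, 4.01, belonged to mt-Atp8, which was scarce in the glucose oxidase library alone. Of the 13 proteins encoded by mitochondrial DNA, 6 were past the limit upward, against 0.971% of all protein-coding genes. The ATP synthase subunit gene mt-Atp8 gave 996, 18 and 470 reads, mt-Nd3 gave 1591, 56 and 709, and mt-Co3 gave 4478, 377 and 2695. All of mt-Nd3, mt-Co3, mt-Co2, mt-Nd4l and mt-Atp6 share 98.0% or more of their stretches with another gene. The top gene mt-Atp8 shares 0% of its stretches, although it overlaps mt-Atp6 in its coordinates. The long genes mt-Cytb and mt-Nd1, with no shared stretch, had ratios of -0.43 and -0.36, and the median of the 13 was 0.01, which turned to -0.08 with total-count scaling and to -0.39 over members with no shared stretch. Aldoart1, an intronless relative of Aldoa, likewise gave 130, 23 and 244 reads. Mitochondrial transcripts as a whole took 1.33%, 1.20% and 1.05% of reads. The 81 ribosomal protein genes had none past the limit, against 3.32% of all genes, and a median of 0.10.

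Other genes highest with Et2HOBA were Sprr2h, a cornified-envelope protein gene, at 0, 37 and 186 reads (4.67-fold, 3.27 to 6.84), Tnfsf18, the ligand of GITR, at 3, 66 and 227 (3.20-fold, 2.42 to 4.27), and Abtb2 at 37, 66 and 229 (3.23-fold, 2.44 to 4.31). Other genes lowest with it were Cdh26, a cadherin, at 536, 225 and 52 reads (4.66-fold lower, 3.43 to 6.42), and Ddx60, an antiviral helicase, at 599, 225 and 55 (4.40-fold lower, 3.26 to 6.02). Itga8, an integrin subunit, gave 658, 185 and 44 reads, Pdzd2 gave 1382, 374 and 99, Prokr1, a prokineticin receptor, gave 789, 228 and 63, and Wnt5b gave 556, 154 and 43. Every one of these lower genes was already below control with the enzyme alone, and every one of the higher genes was above it. Just inside the upper limit stood Ndrg1, Dner and Cnnm4 and just outside it Chac1 and Pdgfra, with ratios from 0.98 to 1.01. At the lower limit Usp49 (51.8% of stretches shared), Tcf19 and Slc12a5 were inside and Fancm, Dhx58 and Espl1 outside, all at -1 to 2 decimals.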

How the data were processed

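RNA-seq of 3 libraries was used. Reads were aligned with STAR and counted with featureCounts on mm10, per the submitters' processing notes, which give no versions; 17878 gene IDs had the version and position of GENCODE M21. The authors deposited raw read counts of the control and glucose oxidase plus Et2HOBA libraries, log2-scale normalized values, and log2 differences as tables of the authors' comparisons. Glucose oxidase counts were recovered by inverting the deposited log2 differences, a variance-stabilizing (arcsinh) function of the counts; 18275 genes were matched by symbol and 12 placed by whole reads. Normalized counts are counts over size factors from medians of ratios (1.03, 0.965 and 1.04), a pseudocount of 10 was added, and 1 log2 unit was the limit. TMM factors came from edgeR 4.0.16 (R 4.3.3), other steps from Python 3.11.15 with scipy 1.17.1; scripts were tested on simulated data. Shared sequence is the share of 50-base stretches of the longest transcript found in another gene. Named were the 12 highest and 12 lowest genes (mean normalized count of 100 or more, under 10% shared), up to 6 members per list past the limit, the colony-stimulating factor genes, endothelial markers and 3 genes at each side of each limit; genes named beyond these, for list context, were chosen after their values were seen. The members, lists, limit and scale were chosen with earlier results of these data known. The scale of the deposited values was computed from 2 constants fitted to the 7 deposited genes. Some genes that the rule names are not reported here.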

Additional observations from a re-analysis of the deposited data

How the results depend on the processing

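With 129 higher and 312 lower genes as the reference, a pseudocount of 1 gave 304 and 764, a pseudocount of 50 gave 65 and 110, a limit of 0.5 gave 756 and 1535, and a limit of 2 gave 15 and 6. The scale of the deposited values gave 13 and 7, and 83 of the 99 named genes past the limit were under it there, since that scale compresses low counts. Over genes with no shared stretch the counts were 69 and 194; over genes under 10% shared, an alternative chosen after seeing the data, 85 were higher. Size factors over the treated pair, TMM, protein-coding size factors, total-count scaling and a minimum mean of 50 kept both counts within 1.5 times. Total-count scaling put the median of all protein-coding genes at -0.11. Of the 441 genes, 414 stayed past the limit in the same direction with it, 175 with a pseudocount of 50 and 20 on the deposited scale. There were 4 lists with a median of 0.5 or more in size, and 0 on the deposited scale. List medians near 0 changed sign with total-count scaling and over members with no shared stretch, in that order: adhesion molecules to -0.06 and -0.03, vasomotor genes to -0.04 and -0.06, the MYC network to -0.08 and -0.17, and mitochondrially encoded genes to -0.08 and -0.39. The NF-kappaB median turned to 0.01 over members with no shared stretch. Adding 1 read to each control count left 3.31% of recovered counts whole. No named gene past the limit changed direction under the 4 alternatives run for single genes. This could not have come out otherwise, because none of the 4 can turn the sign of a ratio that far from 0. With total-count scaling genes near 0 changed sign, such as Nfkbiz from 0.04 to -0.06 and Pecam1 from 0.03 to -0.06. No paired analysis was possible because each group has 1 library, and for the same reason no replicate could be left out. Low read counts, as for Csf2, Csf1r, Ccl20 and Il1a, leave wide intervals.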

Other observations

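Some genes stood near their control level after glucose oxidase alone and differed once Et2HOBA was present. Of the 6352 protein-coding genes within 0.25 log2 units of control after the enzyme, 12 were higher and 36 lower past the limit with Et2HOBA. Both are smaller shares than the 0.971% higher and 2.35% lower of all 13285 protein-coding genes. With a mean normalized count of 100 or more and under 10% of stretches shared, 6 higher and 15 lower genes remained. This selection was made after the values were seen, and both of its conditions use the glucose oxidase library, so the genes are listed as values. Txnip, which binds thioredoxin and restrains glucose uptake, had 11691 reads in control, 12408 with the enzyme and 5965 with both agents, a log2 ratio of -1.16. Aox1, an aldehyde oxidase, had 3513, 3432 and 1578 reads (-1.22). Deptor, an inhibitor of mTOR, had 931, 784 and 334 (-1.31), and Pdk2, a pyruvate dehydrogenase kinase, had 753, 631 and 315 (-1.08). Nkx2-3, a homeobox factor, had 526, 484 and 176 reads (-1.51). On the higher side Akap12, a scaffold for protein kinase A, had 15823, 17301 and 41962 reads (1.17), and Ehd3, an endocytic ATPase, had 2642, 2165 and 5298 (1.18). Pmepa1, a brake on TGF-beta signalling, had 142, 139 and 369 (1.25). Akap12 and Txnip were past the limit on the deposited scale too.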
